A study of Arabidopsis thaliana with 8 samples.

Results

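The set described here comprised 10 genes of the Aux/IAA family, grouped as root repressors other than those at the SHY2 locus and similar gene pairs: IAA8 (AT2G22670), IAA9 (AT5G65670), IAA27 (AT4G29080), IAA16 (AT3G04730), IAA28 (AT5G25890), IAA18 (AT1G51950), IAA26 (AT3G16500), IAA11 (AT4G28640), IAA12 (AT1G04550) and IAA13 (AT2G33310). They were taken by locus identifier, with earlier results of these data known, from 27444 protein-coding genes on the 5 nuclear chromosomes, and all 10 were found in the gene table used. For each gene, every summit within 3 kb of either end was collected. The 4 lists came from ChIP-seq of root apical meristems with an anti-GFP antibody, from 2 libraries of ARR12-GFP plants and 2 libraries of the control, which the series' design text names as Col-0 and the sample titles call GFP. Both genotypes had the Col-0 ecotype and were stratified for 5 days and then kept at 22 °C for 3 days. The promoter that drives ARR12-GFP, and whether native ARR12 was present, are not stated in the labels. Expression of these genes in the sampled tissue was not measured.

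Aux/IAA proteins are short-lived nuclear repressors of the auxin response. They bind auxin response factors (ARFs) at auxin-responsive genes and bring TOPLESS co-repressors to them. Auxin holds an Aux/IAA protein to a TIR1/AFB receptor, the protein is degraded, and the ARF is released. ARR12 is a B-type response regulator, a DNA-binding protein activated by the cytokinin phosphorelay, and in the root meristem cytokinin acts through B-type regulators on the Aux/IAA gene SHY2 (IAA3), where division gives way to differentiation. The 10 genes here lie outside that SHY2 locus.

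A summit is the highest point of a called peak, and its score is the authors' own −log10 value of a p-value or q-value. Scores are compared here within a list, by rank or by percentile (100% for the strongest). ARR12-GFP replicate 1 held 8137 nuclear summits and replicate 2 held 5492, while Col-0 replicates 1 and 2 held 199 and 251. Depth per library is unknown here, and its part in these numbers was not tested. A reproducible site is a position where summits of both ARR12-GFP libraries lay within 200 bp of each other with no Col-0 summit within 200 bp, and there were 3503 of them.

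ARR12-GFP summits lay near most of the 10 genes in replicate 1 and near 5 of them in replicate 2, and Col-0 summits near none. In ARR12-GFP replicate 1, 8 of the 10 genes had a summit within 3 kb (80%, exact binomial 95% interval 44.4 to 97.5), against 38.8% of all protein-coding genes. In ARR12-GFP replicate 2, 5 of 10 had one (50%, interval 18.7 to 81.3), against 27.5% of all genes. In each Col-0 library 0 of 10 had one (exact binomial 95% interval 0 to 30.8%), and the share of all genes was 0.794% in replicate 1 and 0.929% in replicate 2, so a count of 0 is what those short lists give for almost any set of 10 genes. The nearest Col-0 summit to any of the 10 genes lay 10405 bp from IAA28.

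The ARR12-GFP libraries averaged 6.5 ± 2.12 of the 10 genes (SD, n = 2) and the Col-0 libraries 0 ± 0 (SD, n = 2). The summits themselves numbered 14 and 9 in the ARR12-GFP libraries, against 0 and 0 in the Col-0 libraries. The groups did not overlap for either measure, as the sizes of the lists give for nearly any gene set: 38.8% and 27.5% of all genes had an ARR12-GFP summit, against 0.794% and 0.929% with a Col-0 summit. The p was 0.333 for each in an exact permutation test, two-sided, the smallest p that 6 labellings of 2 against 2 libraries allow. That test therefore could not reach 0.05.

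Reproducible sites were found at 4 of the 10 genes: IAA9 with 3, and IAA16, IAA18 and IAA11 with 1 each. That is 40% (exact binomial 95% interval 12.2 to 73.8), against 20.4% of all protein-coding genes. No test against the share of all genes is attached, here or above, and the intervals do not serve as one. The reason is that the genes were chosen with earlier results of these data known. Their median length of 2427 bp was also above the 2078 bp of all genes. Of the others, IAA28 had summits of both ARR12-GFP libraries that did not coincide, IAA8, IAA26 and IAA13 had a summit of replicate 1 alone, and IAA27 and IAA12 had none. Among all genes these 3 classes held 4.23%, 14.2% and 58.2%. The map of summits around each gene shows these arrangements.

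**Figure D1:**
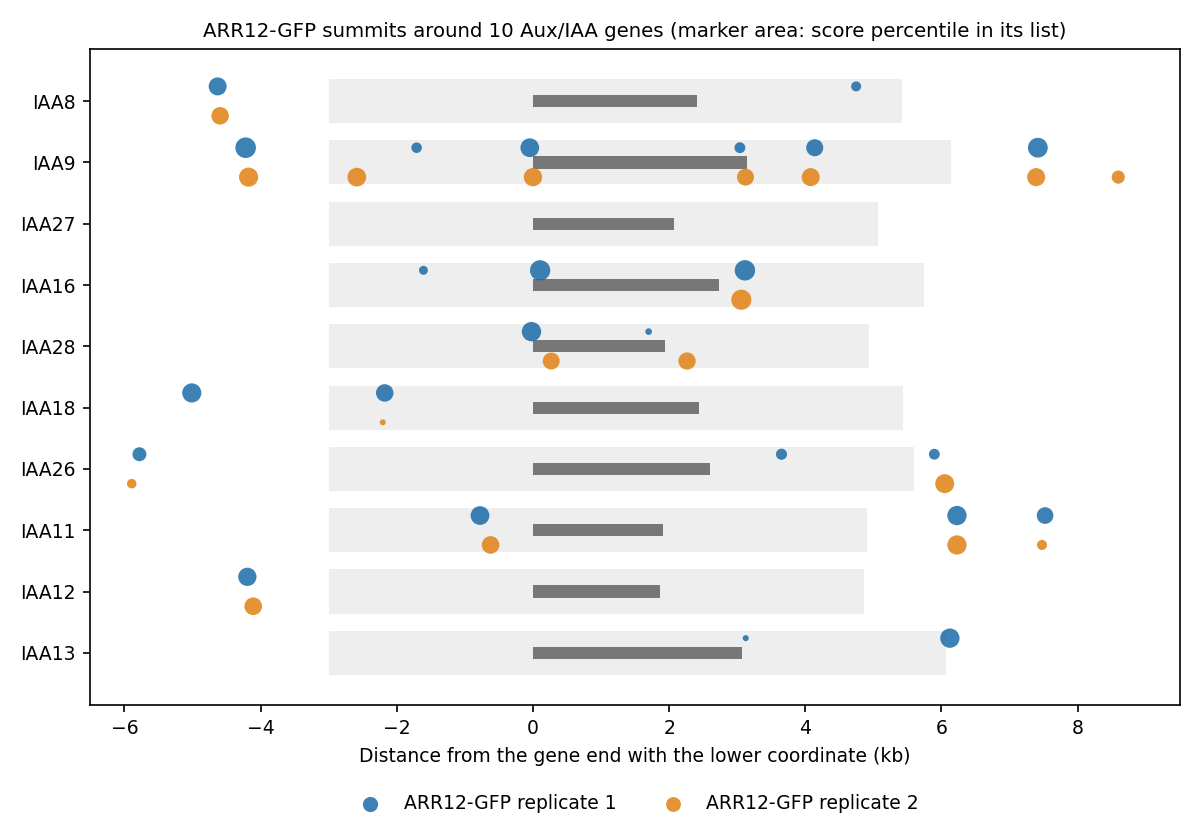
Position of every ARR12-GFP summit up to 6 kb from each of the 10 genes, as the distance in kb from the gene end with the lower coordinate; dark bars are genes, pale bands the 3 kb windows, and marker area grows with the score percentile of the summit in its own list. Markers of both libraries stand above each other inside the window at IAA9 (3 times), IAA16, IAA18 and IAA11, and no Col-0 summit falls in the range drawn.

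IAA9, IAA8 and IAA27 are close relatives with long amino-terminal regions, and the IAA9 counterpart of tomato holds back fruit set and shapes leaves. IAA9 was the most densely occupied of the 10 genes, with 4 summits in each ARR12-GFP library. On chromosome 5 its reproducible sites lay at 26253385, 26256489 and 26257517 (TAIR10), which is 23 bp outside the gene end with the lower coordinate, inside the gene close to the other end, and 973 bp beyond that other end. At the site 23 bp outside, the scores were 21.2 in replicate 1 and 12.7 in replicate 2, at percentiles 81.0 and 77.5.

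The IAA9 site inside the gene was unequal between the libraries, with a score of 6.10 in replicate 1 (percentile 21.5) and 9.57 in replicate 2 (percentile 65.1). The site at 973 bp scored 13.9 and 11.5 in replicates 1 and 2, at percentiles 65.7 and 74.1. Both gene ends thus carried a coinciding pair of summits, and IAA9 was the nearest protein-coding gene to all 3 sites and the single one within 3 kb of them. Among all protein-coding genes, 0.907% had 3 or more reproducible sites within 3 kb, and among the 10 genes IAA9 alone did.

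The remaining IAA9 summits in the window had no partner. Replicate 1 had one of score 5.87 at 1708 bp and replicate 2 one of score 14.0 at 2586 bp, on the same side of the gene and 878 bp apart. Just past the window, coinciding summits flanked IAA9 on both sides: at 4219 and 4176 bp in replicates 1 and 2, with scores of 81.4 and 15.6, and on the other side at 4280 and 4255 bp, with scores of 33.6 and 11.7. The first of these ranked 48 of 8137 in replicate 1, above any summit inside the windows of the 10 genes. Their nearest genes were AT5G65660 and WAVH2 (AT5G65683).

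IAA8 had a single weak summit in its window, in replicate 1 at 2332 bp with a score of 5.59, ranked 6772 of 8137. The nearest replicate 2 summit lay 6096 bp from it. A reproducible site lay on the other side of the gene at 4612 bp, at 9631734 of chromosome 2, where replicate 1 scored 17.3 and replicate 2 scored 10.5, but that site was 451 bp from AT2G22660. IAA27, listed as PAP2 (phytochrome-associated protein 2) in the gene table, had the emptiest surroundings of the 10: its nearest summits lay 7907 bp away in replicate 1 and 33499 bp away in replicate 2.

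IAA16 belongs with IAA7, IAA14 and IAA17 to a group of closely related Aux/IAA genes, and a stabilised IAA16 protein dampens responses to auxin and abscisic acid. It carried the strongest site of the set, at 1291242 of chromosome 3 and 351 bp outside the gene. The scores there were 56.3 in replicate 1, ranked 180 of 8137, and 24.98 in replicate 2, ranked 280 of 5492, and the pair of summits lay 53 bp apart. IAA16 was its nearest gene, with RALFL21 (AT3G04735) at 1117 bp and SWP (AT3G04740), which encodes a Mediator subunit, at 2556 bp.

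Replicate 1 held another strong summit at the opposite end of IAA16, inside the gene at 1288261, with a score of 48.9 and rank 271. The closest replicate 2 summit was 2955 bp away, so it did not count as a site. Of the 201 replicate 1 summits within 100 ranks of it, 89.1% had a replicate 2 summit within 200 bp. The last IAA16 summit, at 1608 bp in replicate 1, scored 5.00 and lay inside the neighbouring gene PR4 (AT3G04720).

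IAA28 encodes a repressor whose stabilised form suppresses lateral root formation. Each ARR12-GFP library placed 2 summits at this gene, and none coincided within 200 bp. In replicate 1 they lay at 9033183 of chromosome 5, 21 bp outside the gene with a score of 27.3 (rank 1020), and at 9034904, inside the gene with a score of 3.62. In replicate 2 they lay at 9033473, inside the gene with a score of 9.51, and at 9035468, 328 bp outside the other end with a score of 9.96. The closest pair was 290 bp apart at the end with the lower coordinate, and the pair at the other end was 564 bp apart. Among replicate 1 summits within 100 ranks of the strong one, 83.6% had a partner within 200 bp. With summits matched within 500 bp IAA28 became a gene with a site, and 5 of the 10 genes were called against 23% of all genes.

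IAA18 and IAA26 are close relatives of each other. Stabilised IAA18 impairs the formation of the embryonic root and of lateral roots, and IAA26 (PAP1) is known to bind the tobacco mosaic virus replicase. IAA18 had 1 site, at 19302890 of chromosome 1 and 2191 bp from the gene, and IAA18 was the single protein-coding gene within 3 kb of it. The summits lay 29 bp apart, the closest pair of the 6 sites, but the libraries differed in strength. Replicate 1 scored 15.3 at percentile 69.5, and replicate 2 scored 2.09, ranked 5490 of 5492, so the IAA18 call was lost once summits below the median score of their list were dropped.

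IAA26 had a replicate 1 summit at 1051 bp with a score of 6.23, ranked 6276 of 8137, and none of replicate 2 in its window. The neighbour AT3G16510 was nearer to that summit than IAA26, at 947 bp. A reproducible site lay on the same side just beyond the window, 3372 bp from IAA26, but inside AT3G16510. It scored 6.06 in replicate 1 and 14.9 in replicate 2.

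IAA11, IAA12 and IAA13 form another related group. IAA12 (BODENLOS) restrains ARF5 (MONOPTEROS) in the embryo, where its stabilised form abolishes the primary root, and IAA13 acts alongside it. IAA11 had 1 site, at 14141363 of chromosome 4 and 700 bp from the gene. Scores were 21.7 in replicate 1 and 10.7 in replicate 2, at percentiles 81.5 and 70.5. The summits stood 155 bp apart, the widest pair of the 6 sites, and the call was lost with matching within 100 bp. ABCB23 (AT4G28630), which encodes a mitochondrial ABC transporter, was nearer to this site than IAA11, at 309 bp, and AT4G28650 lay within 3 kb as well, at 2595 bp. With the nearest gene alone counted, IAA11 lost its call and 3 of the 10 genes were called, against 10.3% of all genes.

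IAA12 had no summit in its window. Summits of both libraries lay just beyond it, at 4194 bp in replicate 1 with a score of 18.7 and at 4108 bp in replicate 2 with a score of 10.8. They formed a site at 1236143 of chromosome 1, inside AT1G04530, and so within another gene. IAA13 had the weakest summit of replicate 1 in the set, 62 bp outside the gene with a score of 3.00 and rank 8092 of 8137. A stronger replicate 1 summit of score 26.7 lay at 3060 bp, past the edge of the window and 158 bp from AT2G33320, and the nearest replicate 2 summit to IAA13 was 22239 bp away.

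Those positions mark what the 3 kb limit kept and left out. The farthest summits inside it were those at 2586 bp from IAA9 and 2332 bp from IAA8, and the nearest outside it were those at 3060 bp from IAA13 and 3296 bp from IAA26. With 5000 bp searched, a distance chosen after the data were seen, IAA8, IAA26 and IAA12 joined the genes with a site, which made 7 of 10 against 28.5% of all genes. With 1500 bp searched, IAA9, IAA16 and IAA11 were called, 3 of 10 against 14% of all genes, and with 500 bp IAA9 and IAA16, 2 of 10 against 8.5%.

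Relatives within the set differed from one another in the 3 kb window. A site stood at IAA9 and not at IAA8 or IAA27, and at IAA18 and not at IAA26. A site also stood at IAA11 and not at IAA12 or IAA13. With 5000 bp searched, IAA8, IAA26 and IAA12 had a site as well, and IAA27 and IAA13 still had none. The IAA18 call was lost at the median score limit, and the IAA11 call with matching within 100 bp or the nearest gene alone. This is a description of 10 genes, without a test. The grouping by relationship comes from background knowledge and was made after the values were seen.

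Scores of the summits near these genes ran from the top to the bottom of the lists. Of the 14 replicate 1 summits, 5 stood at or above percentile 75 of their list and 7 below percentile 25, with a median percentile of 44.3. Of the 9 replicate 2 summits, 3 stood at or above percentile 75 and 1 below percentile 25, with a median percentile of 70.5. Of the 7 weak replicate 1 summits, 6 had no replicate 2 summit within 200 bp, the exception being the IAA9 site inside the gene. Among all replicate 1 summits of like rank, 11.6 to 20.4% had such a partner.

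**Figure D2:**
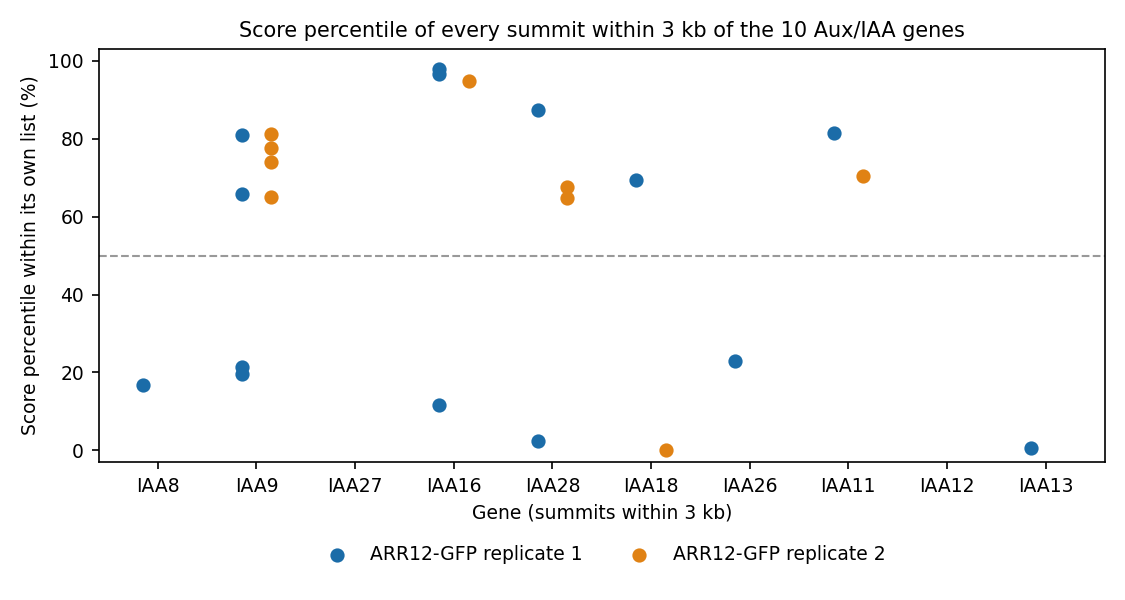
Score percentile in its own list (%) of each summit within 3 kb of the 10 genes, with 14 points for ARR12-GFP replicate 1 and 9 for replicate 2; the dashed line is the middle of a list. IAA16 holds the highest points at 97.8 and 96.7 in replicate 1 and 94.9 in replicate 2, while IAA8, IAA26 and IAA13 have a single low replicate 1 point and IAA27 and IAA12 have none.

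The 6 reproducible sites spanned a wide range of strength. Their percentiles averaged over both lists ranged from 34.8 at IAA18 to 96.4 at IAA16, with a median of 73.0, against a median of 62.6 over all 3503 sites. The IAA18 site and the IAA9 site inside the gene, at 43.3, lay below that median, and the other 4 lay above it. Their summits were a median of 56 bp apart, against 51 bp over all sites.

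**Figure D3:**
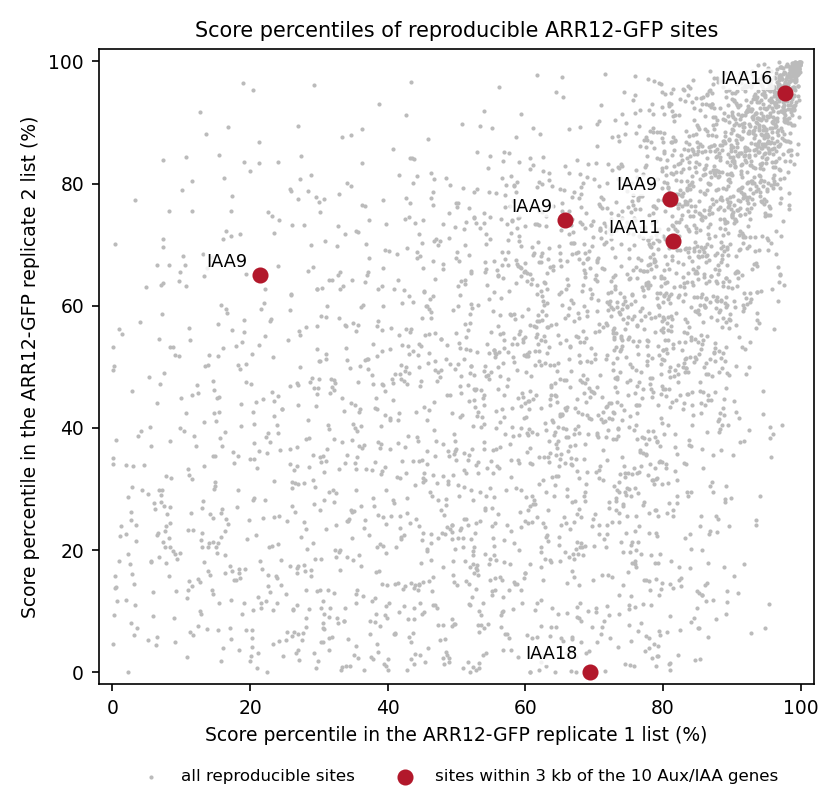
Score percentile (%) of each reproducible site in the ARR12-GFP replicate 1 list (horizontal) and in the replicate 2 list (vertical); the 6 sites of the 10 Aux/IAA genes are the large points and all 3503 sites are grey. IAA16 lies in the upper right corner at 97.8 and 94.9, and IAA18 at the bottom at 69.5 and 0.0546.

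The other genes of the auxin response were read in the same way. Of the 19 remaining Aux/IAA genes, 12 had a summit within 3 kb in replicate 1, against 38.8% of all genes. In replicate 2, 9 had one, against 27.5%. A reproducible site stood at 9 of the 19 (47.4%, exact binomial 95% interval 24.4 to 71.1), against 20.4% of all genes. The share was 40% in the set described here, and neither difference was tested. The 3 relatives of IAA16 each had a site: IAA17 (AT1G04250) at 476 bp with scores of 58.3 and 23.0 in replicates 1 and 2, IAA14 (AT4G14550) at 787 bp with 46.0 and 14.7, and IAA7 (AT3G23050) inside the gene with 26.7 and 10.4. These relatives were picked out from background knowledge after the values were seen, and the 19 also held genes without a site.

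Among their partners, 4 of 6 TIR1/AFB receptor genes, 4 of 5 TOPLESS co-repressor genes and 4 of 5 genes of activating ARFs had a reproducible site within 3 kb, against 20.4% of all genes. The exact binomial 95% intervals were 22.3 to 95.7% for the receptors and 28.4 to 99.5% for each of the other lists. They treat the genes of a fixed list as independent draws and do not cover the spread between libraries. They are also no test against the share of all genes, since the lists were chosen with earlier results known. ARF5 (AT1G19850), the partner of IAA12, had a site at 36 bp that scored 8.62 and 6.70 in replicates 1 and 2. TPL (AT1G15750), the founding TOPLESS gene, had one at 480 bp which scored 29.2 in both libraries. The receptor, co-repressor and ARF genes are longer than the 10 genes, with medians of 2953, 6336 and 5167 bp against 2427 bp. Their windows are therefore wider, and those of the 19 other Aux/IAA genes, with a median of 1450 bp, are narrower.

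**Figure D4:**
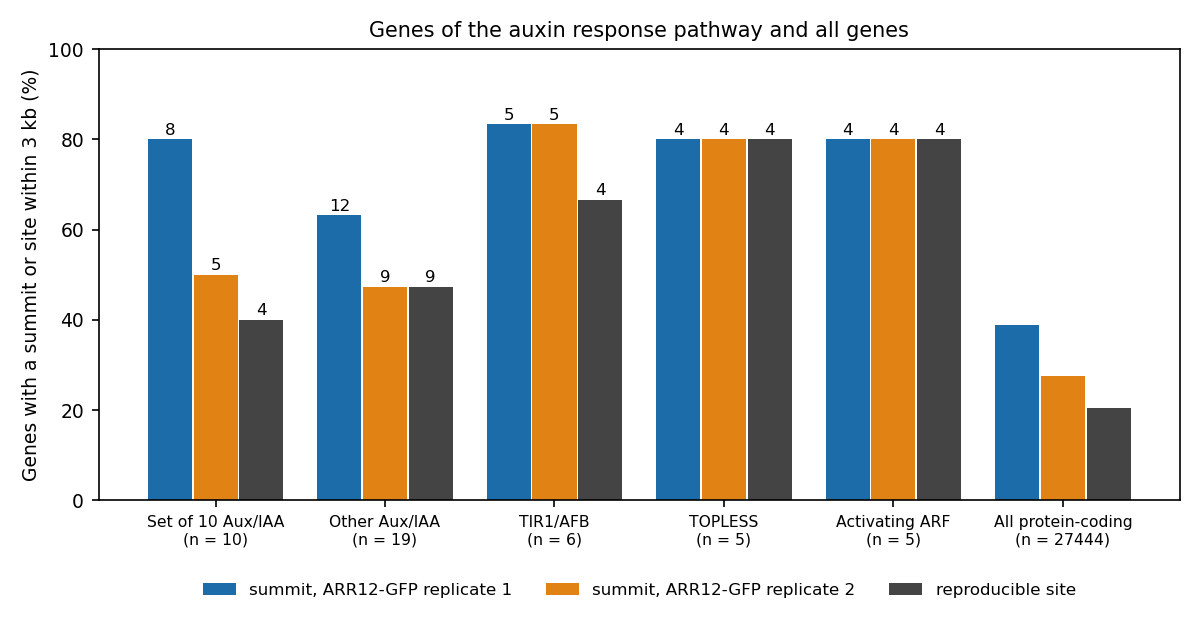
Share of genes (%) with a summit of ARR12-GFP replicate 1, a summit of ARR12-GFP replicate 2 or a reproducible site within 3 kb, for the 10 Aux/IAA genes, the 19 other Aux/IAA genes, 3 lists of their partners and all 27444 protein-coding genes; numbers above bars count genes. For the 10 genes the bars stand at 80, 50 and 40%, and for all genes at 38.8, 27.5 and 20.4%.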

How the data were processed

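Anti-GFP ChIP-seq was analysed from the summit lists of 4 libraries. The 4 input libraries were not used here. Tools named in the submitters' processing notes were MACS2 2.1.0 and Bowtie 1.1.1, with SAMtools and FastQC 0.11.2, and the build named there was TAIR10. The peak caller's settings are not stated in the labels. Each deposited score is a −log10 value of a p-value or q-value by the authors (which is not stated), and each deposited list belongs to 1 library. Peak numbers depend on depth and input, which the lists do not give.

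Genes came from a RefSeq table of assembly TAIR10.1 that holds no strand or sequence, so upstream and downstream sides, motifs and proteins were not analysed here, although planned. Its fit to TAIR10 was checked coarsely: 29.2% of the summits of ARR12-GFP replicate 1 lay inside protein-coding genes, and 57.9% and 57.4% did after shifts of -2000 and 2000 bp. Smaller shifts were not tried, so a small offset could go unseen. ARR12-GFP summits of replicates 1 and 2 were linked where neighbours lay within 200 bp (single linkage), a site lay midway between the best-scoring summit of each, and sites within 200 bp of a Col-0 summit were removed. Libraries were compared by a two-sided exact permutation test. The design text calls the ARR12-GFP and Col-0 replicates independent biological ones. Intervals cover counting error only, with the genes of a fixed list treated as independent draws, and not the spread between libraries.

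Members, lists and rules were chosen with earlier results of these data known. All 10 genes are named; of the other lists, genes among the 6 highest mean percentiles may be named with values, as may genes nearest to a site. Alternatives were other windows, matching distances, score limits and Col-0 rules, and leaving out each library. The code was tested on simulated lists. Software was pandas 2.3.3, SciPy 1.17.1 and NumPy 2.4.6 under Python 3.11.15, with figures by matplotlib 3.10.9.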

Additional observations from a re-analysis of the deposited data

How the results depend on the processing

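The count of genes with a reproducible site was 4 of 10, against 20.4% of all genes. It was 2 with 500 bp searched, against 8.5%, and 7 with 5000 bp, against 28.5%, a distance added after the data were seen. Leaving out 1 library gave 4 to 8: the summits of ARR12-GFP replicate 1 alone (without replicate 2) gave 8, against 38.4% of all genes, those of replicate 2 alone gave 5, against 27.2%, and leaving out either Col-0 library gave 4. The other settings gave 3 to 5, and the share of all genes moved with the setting. It was 11.4% for summits at or above the median score of their list and 16.6% for matching within 100 bp, each with 3 genes called. Matching within 500 bp gave 5 genes, against 23% of all genes. The difference between ARR12-GFP and Col-0 libraries could hardly change direction, since the short Col-0 lists gave 0 in every setting run. It was 5 to 8 genes, against 6.5, and 9 to 14 summits, against 11.5, with a library left out, 3.5 genes and 6 summits with 500 bp searched, and 8.5 genes and 18 summits with 5000 bp. Its exact permutation p was 0.333 throughout except with the replicate block, where labels were exchanged within a replicate number, and p = 0.5 was the smallest that 4 labellings allow. Whether the numbers pair the samples could not be checked with 2 per group. Depth is unknown, so a gene with no summit may have a peak below the limit of calling.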
